A study of Camelus dromedarius with 30 samples.

Results

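The medulla and the cortex of the kidney were compared in dromedary camels (Camelus dromedarius) deprived of water for 20 days. The comparison rests on 10 of the 30 RNA-seq libraries of the series, the 5 medulla and 5 cortex libraries of the dehydrated group, taken by their tissue and treatment labels and paired by the animal labels D1 to D5. All camels were male and 4 to 5 years old, so female animals are not covered. The dehydrated camels had food but no water for 20 days. The 5 control camels, used below only to set the regional difference beside that of watered animals, drank freely, and a rehydrated group of 5 was not analysed here except in alternative fits. Kidneys were taken at an abattoir within 1 hour of killing, frozen and ground as pieces of cortex or medulla, and poly(A) RNA was sequenced. The samples are therefore bulk tissue: in every result below, fewer cells of a type and less RNA per cell cannot be told apart. The methods give a higher mean RNA integrity number for the dehydrated medulla than for the dehydrated cortex, so integrity and region cannot be told apart either.

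The cortex of the mammalian kidney holds the glomeruli, most of the proximal tubule, the distal convoluted tubule and the start of the collecting system, whereas the medulla holds the loops of Henle, the vasa recta and the collecting ducts. The thick ascending limb reabsorbs salt without water, and the urea and salt that build up in the medulla draw water from the collecting duct through aquaporins placed in its membranes under vasopressin. Cells of the medulla live in a hypertonic, poorly oxygenated fluid, in which they store organic osmolytes and rely more on glycolysis, while the proximal tubule of the cortex burns fatty acids to power reabsorption. The camel is known for a thick medulla, long loops and a very concentrated urine when water is short.

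The 10 libraries held 13458448 to 19785428 counted read pairs in the cortex and 18368593 to 19780774 in the medulla. Of 22444 genes in the table, 18925 had at least 1 count in these libraries and 14451 passed the filter on low counts and were tested. The biological coefficient of variation was 26.6%, so the 5 animals rather than the depth set the precision for all but low counts. Levels are given in CPM, counts scaled to the library size as corrected by edgeR's TMM method, and p_adj is the Benjamini-Hochberg adjusted p-value of edgeR's quasi-likelihood test with the animal as a block. A gene with p_adj under 0.05 is called a DEG, fold changes are medulla over cortex on the log2 scale with their standard error, and n = 5 camels throughout. Symbols were paired with 3634 gene identifiers, mostly genes that the study listed as changed between its conditions, so the named genes and gene lists lean towards such genes, and 70.8% of the tested genes with a symbol were DEGs against 67.5% of those without.

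The tissue labels were checked on defining genes. The first principal component of log2 CPM held 77.2% of the variance, against 5.52% for the second, and placed all 5 cortex libraries on the other side of all 5 medulla libraries. SLC14A1, the urea transporter of the descending vasa recta, was at most 4.36 CPM in any cortex library and at least 179.8 CPM in any medulla library, and 18 of the 22 tested proximal tubule transporters were higher in the cortex. By SLC14A1, and by the summed proximal tubule transporters given below, each library lay on the side of its labelled region. Of 5 tested glomerular genes, however, 3 were higher in the medulla. The medulla pieces also held proximal tubule RNA, in amounts that differed between camels, as described below.

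Most of the transcriptome differed between the regions. DEGs made up 68.3% of the tested genes, 9877 in all, and for 8202 genes, 56.8% of those tested, every library of a region lay on the same side of every library of the other. Of the DEGs, 5073 were higher in the medulla (35.1% of tested genes) and 4804 in the cortex (33.2%), and 9509 differed in the same direction in all 5 camels. The median size of the change over the DEGs was 1.19 on the log2 scale. Changes of at least 4-fold were found in 2124 genes, 14.7% of those tested, with 1445 higher in the medulla (10.0%) and 679 in the cortex (4.70%). Changes of at least 16-fold favoured the medulla in 140 genes and the cortex in 48. The split depends on the scaling: with total counts in place of TMM the median log2 fold change of all tested genes moved up by 0.546, and 7714 DEGs were higher in the medulla and 2526 in the cortex. The share of DEGs higher in the medulla was then 75.3% in place of 51.4%, and that of the 4-fold DEGs was 86.8% in place of 68.0%. Directions are given below relative to the TMM scaling, and most counts and directions that changed with total counts are given where they occur.

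Among the genes with a symbol, SLC14A1 (chromosome 30, 22599892 to 22621398, minus strand, CamDro2 assembly) had the largest excess in the medulla. It was at 0.623, 1.30, 4.36, 0 and 0.507 CPM in the cortex of camels D1 to D5 and at 182, 264, 458, 419.9 and 179.8 CPM in their medulla (log2 fold change 8.06 ± 0.61, p_adj = 3.00e-04). The lowest medulla library lay far above the highest cortex library, and on a log scale the cortex values, all near 0, scattered more than those of the medulla. CHI3L1, a secreted chitinase-like glycoprotein (chromosome 23, 34095899 to 34103494, plus strand), was at 4.05, 1.21, 1.03, 0.874 and 1.77 CPM in the cortex and at 195, 39.4, 32.9, 66.0 and 160.2 CPM in the medulla (log2 fold change 5.69 ± 0.26, p_adj = 8.01e-05). Its medulla values were high in camels D1 and D5 and lower in the other three, yet all lay above every cortex value. The other 8 of the 10 genes with the largest excess in the medulla had log2 fold changes of 4.14 to 4.87, in the order RANBP3L, CTTNBP2NL, PROSER2, TSPAN1, DDX6, CCDC186, HACD4 and SLC6A12. They include TSPAN1, a tetraspanin of the cell membrane (4.43, p_adj = 1.26e-04), HACD4, a dehydratase of fatty acid elongation (4.16, p_adj = 3.00e-04), and SLC6A12, the transporter that takes up betaine. DDX6, an RNA helicase of processing bodies found in most cells, was at 1.71, 1.21, 3.27, 0.612 and 2.72 CPM in the cortex and at 20.3, 51.6, 36.7, 98.3 and 19.2 CPM in the medulla (log2 fold change 4.28 ± 0.60, p_adj = 7.92e-04).

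KLK1, the tissue kallikrein of the connecting tubule (chromosome 9, 9371432 to 9377815, minus strand), had the largest excess in the cortex. It was at 855, 699.7, 686, 981 and 435 CPM in the cortex and at 8.20, 25.4, 1.84, 2.99 and 5.10 CPM in the medulla (log2 fold change -6.93 ± 0.64, p_adj = 3.49e-04), without overlap. KLK1 belongs to a gene family, and reads shared with related genes could affect its value, which was not tested. SLC22A8, which takes organic anions from the blood into the proximal tubule cell, was at 396, 353, 159, 500.1 and 386 CPM in the cortex and at 7.77, 27.5, 0.787, 3.32 and 8.94 CPM in the medulla (log2 fold change -5.85 ± 0.61, p_adj = 4.00e-04). The medulla of camel D2 held more of it than the other four, and still less than any cortex. A further 7 of the 10 genes with the largest excess in the cortex had log2 fold changes of -5.38 to -4.16. They were APOA2, an apolipoprotein of high-density lipoprotein, SLC6A19, which reabsorbs neutral amino acids, C9, a component of the complement membrane attack complex, PHYHD1, MIOX, which starts the breakdown of inositol, NLRP6, an inflammasome sensor, and RBP4, which carries retinol in plasma. NLRP6 stood at 24.9, 21.8, 18.2, 107 and 19.5 CPM in the cortex and at 2.78, 1.71, 0.394, 1.29 and 1.96 CPM in the medulla (log2 fold change -4.29 ± 0.53, p_adj = 5.63e-04). The cortex of camel D4 lay far above the other four, all of which were still above every medulla value.

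Levels per kilobase of exon were compared among the 150 genes that the naming rule took. UMOD had the highest level in the medulla with 5108 CPM per kb, followed by CLU, which encodes the secreted chaperone clusterin, with 3212. In the cortex, RPS6 was highest with 3908 CPM per kb, followed by ACAA2 with 2856 and AQP1 with 2795.

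Gene lists for the segments and cell types of the kidney and for the functions the region is known for were counted beside the background of all tested genes, 35.1% with a medulla excess and 33.2% with a cortex excess. The 22 lists held 308 tested genes, of which 239 (77.6%) were DEGs. The median log2 fold change over all tested genes was 0.05.

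**Figure D1:**
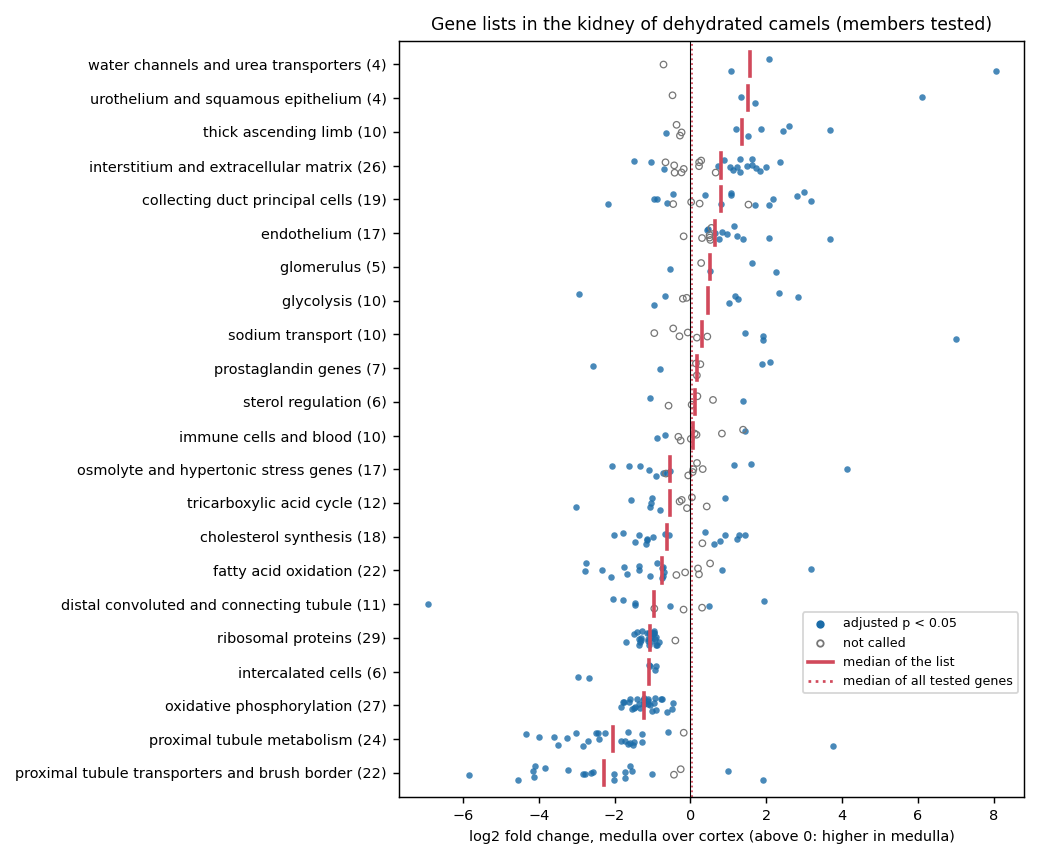
Log2 fold change of medulla over cortex in dehydrated camels for every tested member of the 22 gene lists, with the number tested in brackets; filled points are DEGs, open points are not, red bars are list medians and the dotted line is the median of all tested genes. The proximal tubule lists lie to the left with medians of -2.29 and -2.03 and the water and urea list to the right with 1.57. KRT23 and SLC9A4, at 3 counts or fewer in every cortex library, are drawn at fitted values that are not bounds, and the medians of the osmolyte and tricarboxylic acid cycle lists turned to 0.01 and 0.004 with scaling by total counts.

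Genes of the proximal tubule were lower in the medulla. Of 22 tested transporters and brush border genes, 18 were higher in the cortex, 2 in the medulla and 2 were not DEGs, and their median log2 fold change was -2.29. ANPEP, the brush border aminopeptidase N, had a mean of 363 ± 129 CPM (SD) in the cortex and 28.9 ± 27.8 in the medulla (log2 fold change -4.13 ± 0.49, p_adj = 5.14e-04). SLC6A19 was at 331, 558, 502, 892 and 400.4 CPM in the cortex and at 21.6, 119, 5.03, 23.8 and 15.1 CPM in the medulla (log2 fold change -4.55 ± 0.62, p_adj = 7.44e-04). SLC5A10, a sugar transporter (-3.22), SLC17A3, an organic anion exporter (-3.83), and ALPL, alkaline phosphatase (-2.84), were lower in the medulla too. The exceptions were SLC9A3, the sodium-proton exchanger NHE3, which is also found in the thick ascending limb, and SLCO4C1, an organic anion transporter. SLC9A3 was at 9.11, 3.73, 10.4, 1.66 and 3.10 CPM in the cortex and at 10.2, 31.3, 20.0, 26.5 and 11.5 CPM in the medulla (log2 fold change 1.93 ± 0.54, p_adj = 0.0140). The medulla of camel D1 lay just below the cortex of camel D3, and each camel had more SLC9A3 in its medulla. SLCO4C1 differed less (log2 fold change 0.98 ± 0.30, p_adj = 0.0197) and was no longer a DEG without camel D2, without camel D4 or when all 30 libraries were fitted.

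Of 24 enzymes and related genes of proximal tubule metabolism, 22 were higher in the cortex and 1 in the medulla, with a median of -2.03. MIOX was at 240.5, 264, 129, 343 and 139.6 CPM in the cortex and at 20.8, 47.8, 1.62, 8.42 and 6.89 CPM in the medulla (log2 fold change -4.34 ± 0.56, p_adj = 6.18e-04), without overlap. CYP24A1, which inactivates vitamin D, was at 313, 251, 223, 314 and 211 CPM in the cortex and at 25.2, 55.3, 1.44, 20.4 and 14.6 CPM in the medulla (log2 fold change -4.00 ± 0.64, p_adj = 0.00127). The medulla values of CYP24A1 spread widely, with camel D3 lowest and camel D2 highest, and none reached the lowest cortex value. PC, which feeds pyruvate into gluconeogenesis (-3.01), BHMT, which methylates homocysteine with betaine (-3.50), and GLYAT, which conjugates acids with glycine (-3.25), were among those higher in the cortex. HAL, histidine ammonia-lyase, was the member higher in the medulla, at 0, 0.186, 0.860, 0.350 and 0.0634 CPM in the cortex and 3.67, 4.67, 3.50, 4.41 and 1.83 CPM in the medulla (log2 fold change 3.78 ± 0.61, p_adj = 0.00131).

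Genes of the thick ascending limb were mostly higher in the medulla. Of 10 tested, 6 were higher there, 1 was higher in the cortex and 3 were not DEGs, with a median of 1.37. UMOD, which encodes uromodulin, the most abundant protein of normal urine, was at 4822, 6197, 7539, 4639 and 7203 CPM in the cortex and at 19030.2, 12820.5, 10853, 12786 and 15125 CPM in the medulla (log2 fold change 1.22 ± 0.28, p_adj = 0.00614). The groups did not overlap, and the 2 regions came closest in camel D3. CLDN19, a tight junction protein of the paracellular magnesium and calcium path, was at 6.93, 9.60, 12.9, 6.12 and 15.8 CPM in the cortex and at 60.4, 51.2, 58.6, 64.0 and 60.7 CPM in the medulla (log2 fold change 2.59 ± 0.24, p_adj = 3.32e-04). TMEM72 (3.68), the transcription factors ESRRB (2.46) and IRX5 (1.52), and EGF, the epidermal growth factor precursor (1.85), were higher in the medulla as well. CLDN10, a sodium-selective tight junction protein, was the member higher in the cortex (log2 fold change -0.63 ± 0.17, p_adj = 0.0119), and it was no DEG with total counts.

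Genes of the distal convoluted and connecting tubule were higher in the cortex in 6 of 11 cases and higher in the medulla in 2, with a median of -0.95. CALB1, the calcium-buffering calbindin, was at 868, 580.0, 546, 610.2 and 494 CPM in the cortex and at 249, 483, 69.8, 153 and 56.9 CPM in the medulla (log2 fold change -2.05 ± 0.41, p_adj = 0.00317). KLHL3, which marks WNK kinases for degradation, was at 96.4, 73.7, 68.4, 93.9 and 72.0 CPM in the cortex and at 31.2, 29.8, 23.9, 31.2 and 29.8 CPM in the medulla (log2 fold change -1.46 ± 0.11, p_adj = 3.00e-04). Neither gene overlapped between the regions. TSC22D3, a glucocorticoid-induced gene, was higher in the cortex (-1.45), and so was SGK1, the kinase that raises sodium channel activity (-0.54, p_adj = 0.0199), whose direction turned to 0.01 with total counts and which was no DEG without camel D1, without camel D3 or without the block. The calcium pumps ATP2B1 (0.50) and ATP2B4 (1.94) were higher in the medulla.

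All 6 tested genes of the intercalated cells, the acid-base cells of the collecting system, were higher in the cortex, with a median of -1.08. RHCG, an ammonia channel, was at 502, 565, 388, 619 and 347 CPM in the cortex and at 76.5, 100.2, 70.3, 36.7 and 112 CPM in the medulla (log2 fold change -2.66 ± 0.33, p_adj = 5.65e-04). Its partner RHBG (-2.96) and the proton pump subunits ATP6V1B1 (-1.09) and ATP6V0A4 (-0.92) were lower in the medulla too. The 2 ammonia channels differed more than the pump subunits.

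Of 19 principal cell genes of the collecting duct, 10 were higher in the medulla, 5 in the cortex and 4 were not DEGs, with a median of 0.80. Total counts gave 12 and 1 and a median of 1.34. AQP2, the water channel that vasopressin moves to the apical membrane (chromosome 12, 11732224 to 11737545, minus strand), was at 242, 268, 258, 248 and 160.4 CPM in the cortex and at 296, 429.7, 788, 515 and 543 CPM in the medulla (log2 fold change 1.08 ± 0.24, p_adj = 0.00454). All 5 camels had more in the medulla, camel D5 had the lowest cortex value and camel D1 the smallest difference. AQP3, a basolateral water and glycerol channel, was at 31.5, 26.5, 58.9, 26.3 and 53.2 CPM in the cortex and at 67.7, 153, 338, 138 and 179 CPM in the medulla (log2 fold change 2.06 ± 0.23, p_adj = 4.56e-04), without overlap. Other members higher in the medulla were CLDN8, a tight junction protein (2.18), TFCP2L1, a transcription factor of the collecting duct (3.00), RAB11FIP1, an effector of recycling endosomes (3.19), and WNT7B, a secreted Wnt ligand (2.81). HSD11B2, which shields the mineralocorticoid receptor from cortisol, was higher in the cortex, at 392, 379, 302, 357 and 249.5 CPM against 96.6, 64.1, 84.5, 41.3 and 95.6 CPM in the medulla (log2 fold change -2.18 ± 0.25, p_adj = 4.81e-04). SCNN1A, the alpha subunit of the epithelial sodium channel, was at 359.7, 356, 301, 400.4 and 305 CPM in the cortex and at 254, 209, 324, 198 and 289.7 CPM in the medulla and was not a DEG (log2 fold change -0.45 ± 0.19, p_adj = 0.0631), although DESeq2, limma-voom, the fit without the block, the blocked fit of all 30 libraries and the fit without camel D3 called it lower in the medulla. With total counts its difference was 0.09.

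Of 4 tested water channels and urea transporters, AQP2, AQP3 and SLC14A1 were higher in the medulla. AQP1, the water channel of the proximal tubule, descending thin limb and descending vasa recta (chromosome 7, 45061823 to 45075076, plus strand), was the most abundant of them, at 5366, 4651, 7099, 10651 and 10169.9 CPM in the cortex and 4972, 4106, 4952, 4271 and 3798 CPM in the medulla. The cortex of camels D4 and D5 held more AQP1 than any other library. Only the cortex of camel D2 lay within the range of the medulla, and all 5 camels had less AQP1 in their medulla. It was not a DEG (log2 fold change -0.71 ± 0.28, p_adj = 0.0551), although DESeq2, limma-voom, the fit without the block and both fits of all 30 libraries called it, all lower in the medulla.

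**Figure D2:**
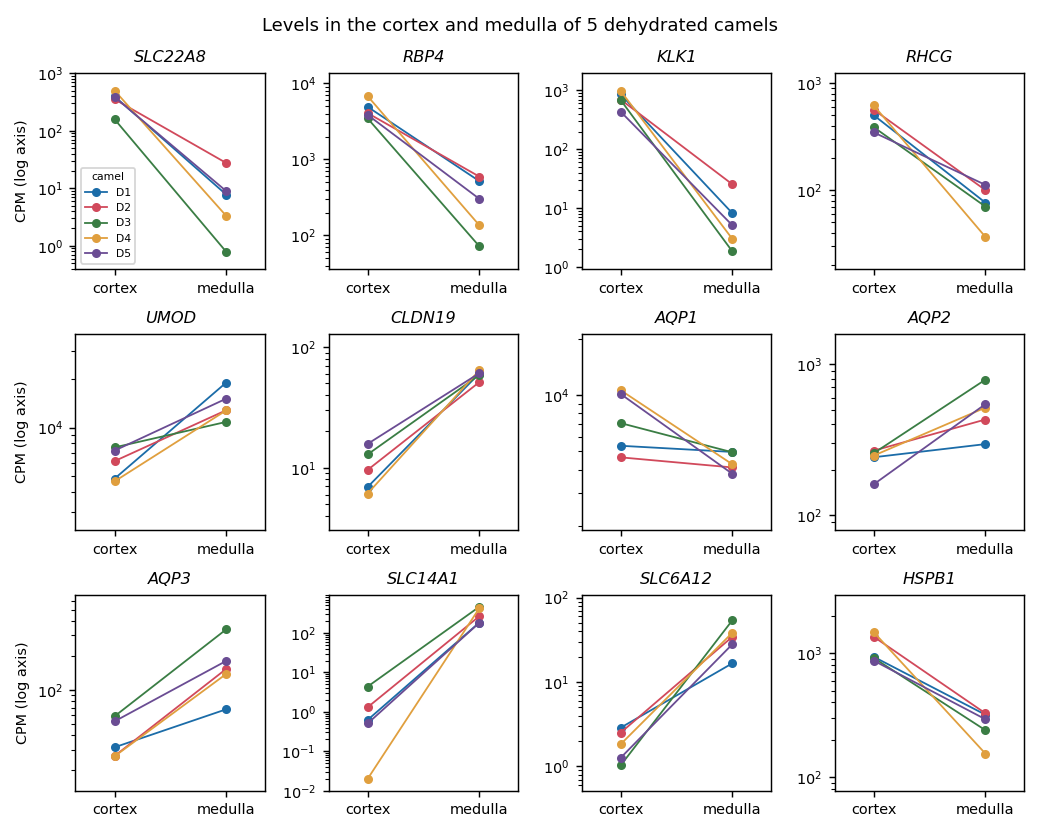
CPM (log axis) of 12 genes in the cortex and the medulla of the 5 dehydrated camels, each line joining the libraries of a camel; SLC14A1 had no count in the cortex of camel D4, which is drawn at 0.02. The lines of SLC14A1 and SLC6A12 rise steeply and those of SLC22A8 and KLK1 fall in every camel, whereas those of AQP1 are flat in camels D1 and D2 and fall in the others.

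Of 17 genes for organic osmolytes and the response to hypertonic stress, 3 were higher in the medulla and 8 in the cortex, with a median of -0.54, and with total counts 8 were higher in the medulla, 3 in the cortex and the median was 0.01. SLC6A12, the betaine transporter BGT1, was at 2.88, 2.52, 1.03, 1.84 and 1.27 CPM in the cortex and at 16.7, 34.4, 53.8, 38.4 and 28.0 CPM in the medulla (log2 fold change 4.14 ± 0.43, p_adj = 3.95e-04). HSPH1 and HSPA4L, chaperones of the HSP110 family, were the other 2 higher in the medulla, HSPH1 from 39.3 ± 12.7 CPM (SD) in the cortex to 117 ± 26.1 CPM and HSPA4L from 5.62 ± 1.32 to 12.5 ± 3.13 CPM. The taurine transporter SLC6A6 was lower there (log2 fold change -0.62 ± 0.21, p_adj = 0.0299) but not a DEG with total counts, without camels D3, D4 or D5 in turn, or in the 6-group fit of all 30 libraries. CSAD, which makes the taurine precursor hypotaurine (-1.33), and SLC5A11, a sodium-inositol transporter (-1.61, lost with total counts), were lower in the medulla. HSPB1, the small heat shock protein HSP27, was at 937, 1362, 917, 1483 and 872 CPM in the cortex and at 319, 327, 239, 154 and 293 CPM in the medulla (log2 fold change -2.07 ± 0.27, p_adj = 6.50e-04), without overlap. The abundant chaperones HSPA8 and HSP90AA1 were not DEGs (0.06 and 0.18) and were called higher in the medulla with total counts.

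Among 7 prostaglandin genes, 2 were higher in the medulla and 2 in the cortex, and 5 and 1 with total counts. PTGS1, cyclooxygenase 1, was at 11.8, 15.0, 14.3, 14.0 and 11.8 CPM in the cortex and at 41.6, 51.5, 89.5, 59.0 and 51.7 CPM in the medulla (log2 fold change 2.09 ± 0.16, p_adj = 3.00e-04). PLA2G4A, the phospholipase that frees arachidonic acid, was higher in the medulla as well (log2 fold change 1.90 ± 0.15, p_adj = 3.04e-04). PTGR1, which inactivates prostaglandins and leukotrienes, was higher in the cortex (log2 fold change -2.56 ± 0.33, p_adj = 6.31e-04). PTGES, a prostaglandin E synthase, was not a DEG (log2 fold change 0.17 ± 0.23, p_adj = 0.518) except with total counts.

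Of 10 sodium transport genes, 4 were higher in the medulla and 0 in the cortex by edgeR. Over all tested genes the shares were 35.1% and 33.2%. Total counts gave 7 and 0, and a filter on a mean of at least 1 CPM gave 3 and 0. In the cortex direction 1 gene had an unadjusted p under 0.05, DESeq2 called 2 and limma-voom 1. The sodium pump beta subunits ATP1B1 (log2 fold change 0.45 ± 0.18, p_adj = 0.0589) and ATP1B3 (log2 fold change 0.17 ± 0.14, p_adj = 0.295) were not DEGs, although total counts called both higher in the medulla, and DESeq2, limma-voom and the fit without the block called ATP1B1. SLC9A7, an exchanger of internal membranes, was at 3.11, 2.98, 3.04, 1.14 and 2.22 CPM in the cortex and at 7.73, 7.63, 9.93, 16.3 and 7.50 CPM in the medulla (log2 fold change 1.92 ± 0.38, p_adj = 0.00282). SLC9A4, the exchanger NHE4, had no count in any cortex library and a mean of 0.876 CPM in the medulla. That is at least 3.85-fold higher against a floor of 3 counts per library. The gene passed the filter on low counts through its medulla libraries alone. KCNJ8, a pore subunit of ATP-sensitive potassium channels of smooth muscle and pericytes, was higher in the medulla, at 6.85, 10.3, 14.6, 9.44 and 15.1 CPM in the cortex and 37.6, 30.5, 40.5, 45.8 and 39.1 CPM in the medulla (log2 fold change 1.82 ± 0.20, p_adj = 4.32e-04).

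Endothelial genes were higher in the medulla in 11 of 17 cases and 6 were not DEGs, with a median of 0.64, and total counts gave 16. In the cortex direction there were 0 by edgeR, also at an unadjusted p under 0.05, and 0 by DESeq2 and limma-voom. ANGPT2, an antagonist ligand of the TIE2 receptor, was at 9.81, 13.8, 11.3, 7.52 and 18.9 CPM in the cortex and at 191, 131, 131, 212 and 115 CPM in the medulla (log2 fold change 3.68 ± 0.33, p_adj = 3.15e-04). CDH5, the cadherin of endothelial junctions, differed less (log2 fold change 1.16 ± 0.18, p_adj = 0.00115), PECAM1, an adhesion protein of the same junctions, differed by 0.45 (p_adj = 0.0274, lost without camel D3 or D5), and VWF, von Willebrand factor, was not a DEG (log2 fold change -0.18 ± 0.23, p_adj = 0.520) and turned to 0.37 with total counts. ANGPT2 thus stood apart from the general endothelial genes in size.

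Of 26 genes of the interstitium and extracellular matrix, 14 were higher in the medulla, 3 in the cortex and 9 were not DEGs, with a median of 0.80, and total counts gave 18 and 1. TNC, tenascin C, was at 7.63, 2.14, 6.02, 9.79 and 7.48 CPM in the cortex and at 38.6, 14.4, 38.3, 30.1 and 44.1 CPM in the medulla (log2 fold change 2.37 ± 0.20, p_adj = 3.04e-04). FN1, fibronectin, was at 30.0, 15.7, 32.1, 29.5 and 28.1 CPM in the cortex and at 83.5, 88.1, 147, 194 and 63.4 CPM in the medulla (log2 fold change 2.01 ± 0.24, p_adj = 5.47e-04). Both were without overlap. COL3A1, a fibrillar collagen (23.9 ± 10.6 CPM in the cortex, 67.0 ± 24.7 CPM in the medulla, mean ± SD), and TIMP3, an inhibitor of matrix proteases (1.84), were higher in the medulla, whereas COL1A1 was not a DEG (log2 fold change 0.29 ± 0.20, p_adj = 0.232) except with total counts. SPARC (-1.05), THY1 (-1.48, lost without camel D5 and with total counts) and EFEMP1 (-0.70, lost with total counts) were higher in the cortex.

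Genes of other cells that a piece of kidney can hold gave mixed values. Of 5 glomerular genes, SYNPO (2.26), CD2AP (1.63) and TJP1 (0.53, lost without camel D3) were higher in the medulla, and ITGA8 was higher in the cortex (-0.54), a direction that turned to 0.01 with total counts. SYNPO, CD2AP and TJP1 are made in other kidney cells than podocytes as well, and the more specific podocyte genes carried no symbol here. Of 4 urothelial genes, 3 were higher in the medulla, among them EVPL, a protein of the cornified envelope (1.33), and KRT23. KRT23, a keratin, had at most 2 counts in any cortex library and was at 0.518, 8.25, 8.22, 2.23 and 0.916 CPM in the medulla, and no fold is given for it. It passed the filter on low counts through its medulla libraries alone, so its direction was fixed by that filter. S100A2, the most abundant of the 4, was not a DEG (log2 fold change -0.47 ± 0.30, p_adj = 0.190), and its difference turned to 0.075 with total counts. Of 10 immune and blood genes, 1 was higher in the medulla, 2 in the cortex and 7 were not DEGs, and total counts gave 3 and 0. HBB, the beta chain of hemoglobin, was at 5.37, 0.932, 1.55, 1.84 and 1.39 CPM in the cortex and at 3.86, 1.38, 2.01, 1.54 and 2.31 CPM in the medulla (log2 fold change 0.16 ± 0.29, p_adj = 0.635). It was low throughout and highest in both regions of camel D1.

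Genes of oxidative metabolism were higher in the cortex. All 27 tested nuclear genes of oxidative phosphorylation were DEGs higher in the cortex, beside 33.2% of all tested genes, and had a median of -1.22. All 27 were without overlap between the regions, beside 56.8% of all tested genes. With total counts 21 of them were DEGs in that direction. ATP5F1B, the catalytic beta subunit of ATP synthase, was at 4166, 4599.6, 3975, 5334 and 3673 CPM in the cortex and at 2643, 2494, 2739.5, 2119 and 2874 CPM in the medulla (log2 fold change -0.75 ± 0.21, p_adj = 0.0144), and was no DEG without camel D2 or with total counts, which gave -0.21. Summed over the list, cortex levels were 15729, 18532, 14680.2, 20618 and 14378 CPM and medulla levels 8904, 8343, 8647, 6614 and 9709.6 CPM. The table holds no gene of the mitochondrial chromosome, so the subunits made there were not measured.

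Fatty acid oxidation followed with 15 of 22 higher in the cortex, 2 in the medulla and a median of -0.75, and 9 and 5 with total counts. ECHS1, the enoyl-CoA hydratase of mitochondria, was at 4072, 4016, 2753, 5392 and 3697 CPM in the cortex and at 737, 808, 379, 375 and 701 CPM in the medulla (log2 fold change -2.77 ± 0.28, p_adj = 3.85e-04). ACAA2, the thiolase of the last step, differed by -2.33, and CPT2, which takes fatty acids into the matrix, by -0.75. ACSL4, an acyl-CoA synthetase with a preference for arachidonic acid, went the other way at 2.10, 2.42, 4.47, 2.18 and 3.10 CPM in the cortex and 29.2, 23.5, 19.3, 39.9 and 20.2 CPM in the medulla (log2 fold change 3.18 ± 0.32, p_adj = 3.94e-04). CROT, a peroxisomal acyltransferase, was the other member higher in the medulla (0.83). In the tricarboxylic acid cycle, 6 of 12 genes were higher in the cortex and 1 in the medulla, with a median of -0.54, and total counts gave 6 and 5 and a median of 0.004. SUCLG1, a subunit of succinyl-CoA synthetase, was lower in the medulla (-1.57), and IDH3A, a subunit of isocitrate dehydrogenase, was higher (0.91).

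Of 10 glycolysis genes, 5 were higher in the medulla and 3 in the cortex, with a median of 0.46, and total counts gave 7 and 1 and a median of 1.00. SLC2A1, the glucose transporter GLUT1, was at 71.6, 48.1, 65.0, 68.3 and 61.0 CPM in the cortex and at 115, 113, 214, 138 and 187 CPM in the medulla (log2 fold change 1.25 ± 0.17, p_adj = 7.42e-04). HK1, hexokinase 1 (1.17), ALDOC, an aldolase (2.33), and PGAM2, a phosphoglycerate mutase (2.84), were higher in the medulla. ENO2, an enolase, was higher in the cortex, at 109, 106, 96.9, 138 and 55.1 CPM against 15.2, 12.8, 11.2, 19.2 and 7.59 CPM in the medulla (log2 fold change -2.94 ± 0.11, p_adj = 5.40e-05), while the more abundant ENO1 was not a DEG (-0.20), and with total counts its difference turned to 0.35 and was called.

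Of 29 ribosomal protein genes, 28 were higher in the cortex and 1 was not a DEG, with a median of -1.06. All 29 were without overlap between regions, beside 56.8% of all tested genes. With total counts 24 were DEGs in the cortex direction. RPS6, a protein of the small subunit, was at 3151, 4129, 2977, 4056 and 3157 CPM in the cortex and at 1909.7, 1535, 1824, 1261 and 1889 CPM in the medulla (log2 fold change -1.05 ± 0.23, p_adj = 0.00414). Exon length moved with the ribosomal and oxidative phosphorylation lists. The median exon length was 801 bases for the ribosomal list and 1107 for oxidative phosphorylation, and over all tested genes the median log2 fold change rose from -0.42 in the fifth with the shortest exons (55 to 1250 bases) to 0.51 in the fifth with the longest (3788 to 87623 bases). The share of genes higher in the cortex fell from 46.3% to 18.4% between the same groups of genes. The part of exon length in these results was not tested, and ribosomal protein genes have near-identical copies whose reads the counting could have split.

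Genes of cholesterol synthesis, the pathway on which the study concentrated, differed between the regions in both directions. So did the tested genes at large, with 35.1% higher in the medulla and 33.2% in the cortex. Of 18 tested genes of the pathway, 10 were higher in the cortex, 7 in the medulla and 1 was not a DEG. Their median was -0.61, and total counts gave 8 and 8 and a median of -0.07. The members higher in the cortex included SQLE, squalene epoxidase, at 151, 168, 123, 268 and 90.7 CPM against 35.3, 62.5, 28.2, 37.5 and 30.3 CPM in the medulla (log2 fold change -2.01 ± 0.21, p_adj = 4.01e-04). ACAT2, the thiolase that opens the pathway (-1.77), FDPS, which makes farnesyl diphosphate (-1.45), and the mevalonate enzymes PMVK (-1.36), MVK (-1.15) and MVD (-1.15) shared this direction. HMGCS1, an early synthase of the pathway, was higher in the medulla, at 25.0, 20.5, 25.7, 22.8 and 21.0 CPM in the cortex and 41.7, 42.8, 44.3, 51.3 and 38.1 CPM in the medulla (log2 fold change 0.92 ± 0.12, p_adj = 6.49e-04). The sterol-processing enzymes MSMO1 (1.43) and SC5D (1.22) were higher in the medulla too. DHCR7 (0.39) was called higher there but lost its call without camel D1, D2, D3 or D5 and in both fits of all 30 libraries. LSS (0.64) lost its call without camel D2, D3 or D4 and in the 6-group fit of all 30 libraries. Summed over the 18 genes, the cortex held 1136, 1219.8, 1153, 1506 and 1139 CPM and the medulla 775, 759.8, 695, 735 and 752 CPM. The sum was lower in the medulla of every camel. Of 6 genes of sterol regulation, 1 was higher in the medulla, ERG28 was higher in the cortex (-1.07), and SREBF2, the transcription factor of the pathway, was not a DEG (log2 fold change 0.60 ± 0.27, p_adj = 0.0780), although DESeq2, total counts, the blocked fit of all 30 libraries and the fit without camel D5 called it higher in the medulla.

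On the log2 scale, the camels differed more among themselves in the medulla than in the cortex for the proximal tubule genes. The median SD of log2 CPM between camels was 0.279 in the cortex and 0.327 in the medulla over all tested genes, and 0.338 and 1.05 for the proximal tubule transporters. Summed over the 22 transporters, the cortex held 6748, 5966, 5079.6, 7317 and 6559.7 CPM in camels D1 to D5 and the medulla 1671, 1968, 494, 874 and 1323 CPM. Camels D1 and D2 had the most proximal tubule RNA in their medulla and camel D3 the least. In CPM the SD of this sum was 851 in the cortex and 593 in the medulla. The wider spread in the medulla is therefore relative to its lower level. The thick ascending limb sum was 6605, 7959.9, 9829, 6494 and 8843 CPM in the cortex and 22060.2, 16824, 14698, 17821 and 18474 CPM in the medulla. Most of this sum was UMOD, whose values are given above. The sum was highest in the medulla of camel D1 and lowest in that of camel D3, as was UMOD. The order of the camels is thus largely that of UMOD and need not hold for the other members. Of the genes with the largest scatter of the paired difference among list members, SLC14A1, CYP24A1 and SLC6A19 were described above. How much of each piece came from the outer or inner part of its region is not given in the sources used here, and the part of the proximal tubule RNA of the medulla in the gene differences was not tested.

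**Figure D3:**
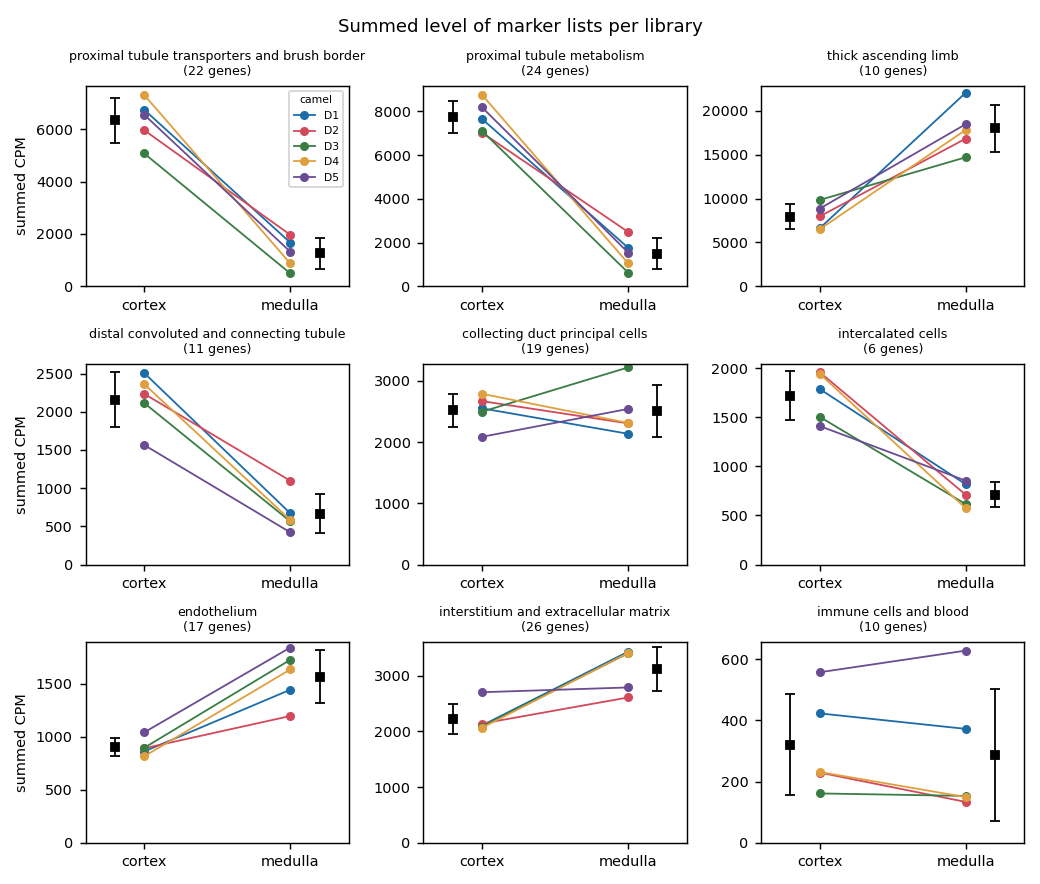
Summed CPM of the tested members of 9 marker lists in the cortex and medulla of the 5 dehydrated camels, each line joining the libraries of a camel and black squares giving the mean ± SD (n = 5). The proximal tubule sums fall in every camel (to 494 to 1968 CPM in the medulla for the transporters). The thick ascending limb sum, mostly UMOD, rises in every camel, and the collecting duct principal cell sum moves in both directions.

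To set the region beside that of watered animals, the 20 control and dehydrated libraries were fitted together with 15074 tested genes. In this fit 9934 genes were DEGs between the regions in dehydrated camels and 9427 in control camels, and 8133 were DEGs in both, which is 81.9% of the former and 86.3% of the latter. Of the shared DEGs, 8121 had the same direction and 12 the opposite. Across genes, which are not independent replicates, the log2 fold changes of the 2 conditions had a Pearson correlation of 0.916 and a Spearman correlation of 0.926. Large regional differences were present in watered camels as well. In control camels SLC14A1 differed by 9.86 ± 0.69, KLK1 by -7.56 ± 0.73, SLC6A12 by 4.76 ± 0.47 and DDX6 by 3.62 ± 0.66. CHI3L1 differed less there, by 2.57 ± 0.30, beside 5.67 in dehydrated camels in the same fit.

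The change of the regional difference with dehydration was then tested by the interaction of region and condition. It passed in 4 genes (0.0265% of those tested), and 1259 genes (8.35%) had an unadjusted p under 0.05. WNT7B was at 0.766, 0.145, 1.29, 1.04 and 1.30 CPM in the cortex of control camels and at 11.1, 23.2, 37.8, 12.1 and 22.2 CPM in that of dehydrated camels, with 135, 133, 161, 82.9 and 120.0 and 109, 134, 187, 131 and 122 CPM in the medulla. The cortex values of the conditions did not overlap and the medulla values did, and the log2 regional difference was smaller in dehydrated camels (difference -4.37 ± 0.43, p_adj = 0.00322). PVALB, parvalbumin, a calcium buffer of the distal convoluted tubule, was at 1.02, 1.02, 1.19, 0.870 and 0.743 CPM in the control cortex and 4.81, 5.81, 3.17, 4.71 and 4.21 CPM in the dehydrated cortex, and at 2.15, 1.93, 3.17, 2.17 and 1.96 and 2.25, 1.42, 0.809, 1.29 and 1.07 CPM in the medulla (difference -2.99 ± 0.37, p_adj = 0.0201). The cortex values of PVALB did not overlap between the conditions, and its medulla values did. Its regional difference was 1.22 in control and -1.78 in dehydrated camels, so PVALB was higher in the medulla of the former and in the cortex of the latter.

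CHI3L1 was at 1.87, 3.19, 2.38, 0.0870 and 1.21 CPM in the control cortex and 3.97, 1.18, 1.02, 0.856 and 1.76 CPM in the dehydrated cortex, and at 12.3, 11.0, 13.6, 3.25 and 7.68 and 190.2, 38.5, 32.04, 64.0 and 158 CPM in the medulla (difference 3.10 ± 0.43, p_adj = 0.0327). Only the medulla values of CHI3L1 lay without overlap between the conditions. SLC27A3, an acyl-CoA synthetase and fatty acid transport protein, was at 12.6, 9.15, 15.1, 16.6 and 14.7 CPM in the control cortex and 22.4, 24.4, 21.2, 23.5 and 22.8 CPM in the dehydrated cortex, and at 35.96, 35.7, 47.4, 29.8 and 33.5 and 25.8, 17.2, 12.7, 13.9 and 17.0 CPM in the medulla (difference -1.87 ± 0.26, p_adj = 0.0327). In dehydrated camels its cortex values were higher and its medulla values lower, without overlap in either region. The regional difference of SLC27A3 was 1.43 ± 0.19 in control camels and missed the threshold in dehydrated ones (log2 fold change -0.43 ± 0.17, p_adj = 0.0538), where it turned to 0.11 with total counts. WNT7B passed under every alternative fit, and the other 3 lost their call in several, for example when single camels were left out or all 30 libraries were fitted with the block.

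**Figure D4:**
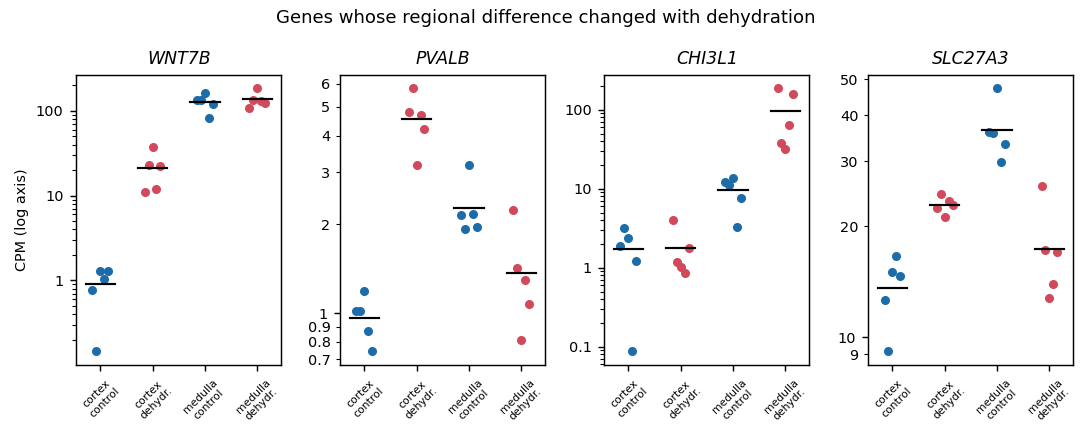
CPM (log axis) of the 4 genes whose regional difference changed with dehydration, with 5 libraries per group as points, the group means as bars, control camels in blue and dehydrated camels in red. WNT7B lies higher in the dehydrated than in the control cortex, and CHI3L1 in the dehydrated than in the control medulla. The means of PVALB and SLC27A3 are higher in the dehydrated cortex and lower in the dehydrated medulla, where the PVALB values of the conditions overlap.

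For the cholesterol list, no gene passed the interaction test after adjustment by edgeR, while 9 of 18 had an unadjusted p under 0.05 beside 8.35% of all tested genes, and DESeq2 called 1 and limma-voom 0. All 18 had a lower regional difference in dehydrated than in control camels, against 55.2% of all tested genes, and the median change was -0.53. Most of the 18 are genes that the study listed as lower in the dehydrated medulla of these same camels, and fewer of them as lower in the cortex. Such a choice favours a lower regional difference, so these shares cannot be weighed as those of an independent list. Ribosomal protein genes moved the same way in 29 of 29 cases and oxidative phosphorylation genes in 25 of 27, with no unadjusted p under 0.05 in either, so a shared direction alone was not particular to the cholesterol list. In control camels 8 of the 18 were higher in the medulla and 5 in the cortex. MVD differed by -0.06 in control and -1.16 in dehydrated camels, and HMGCS1 by 1.86 and 0.91.

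**Figure D5:**
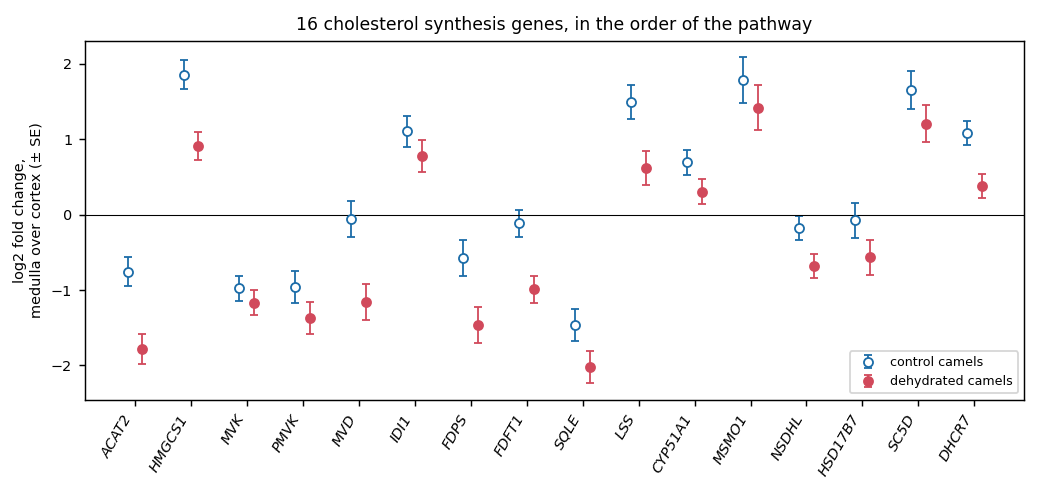
Log2 fold change of medulla over cortex (± SE, n = 5 camels per condition, from the fit of 20 libraries) for 16 cholesterol synthesis genes in pathway order, with control camels as open blue and dehydrated camels as filled red points. The red points lie below the blue ones for all 16 genes, and ACAT2 and SQLE, for example, lie below 0 in both conditions. Values above 0 are higher in the medulla, and none of these changes passed the adjusted test.

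For the transport genes of the region, AQP1 differed by 0.42 ± 0.24 in control camels and by -0.72 in dehydrated camels, AQP2 by 0.49 and 1.07, and AQP3 by 2.86 and 2.05. UMOD differed by 2.22 and 1.21. None of these 4 changes passed the interaction test after adjustment by edgeR, and AQP1 and UMOD had unadjusted p-values of 0.00574 and 0.00790. DESeq2 called both of these changes (p_adj = 0.0457 and 0.0364), and limma-voom neither.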

How the data were processed

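Poly(A) RNA of kidney cortex and medulla was sequenced, and the authors deposited a table of counts, the number of read pairs per gene in each of 30 libraries, without normalization, with the exon length of each gene beside them. The reads were trimmed with BBDuk, aligned to CamDro2 and counted with featureCounts (version 1.6.2), reverse-stranded, on Ensembl release 100. The methods name STAR and the column names Rsubread for the alignment, which is not settled. Per the submitters' processing notes, DESeq2 (version 1.31.18) was used by the authors.

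Counts were analysed with edgeR (version 4.0.16) in R (version 4.3.3): filterByExpr (minimum count 10, minimum total 15), TMM normalisation, a quasi-likelihood fit of the 10 dehydrated libraries with animal and region as terms, and Benjamini-Hochberg adjustment over 14451 tested genes, with 0.05 as the threshold and, for large changes, a log2 fold change of at least 2. Log2 CPM used a prior count of 2. The change of the regional difference was the interaction of region and condition in the 20 control and dehydrated libraries, with the animal nested in condition (15074 genes). The p-values of single genes come from these fits unless another tool is named. Members, gene lists and tests were chosen with earlier results of these data known. Lists are described by counts and medians, and no p-value is given for a list; exact sign-flip tests of the summed levels were computed but are not reported, since the members were chosen with results known and 5 pairs cannot go below p = 0.0625.

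Symbols came from the study's supplementary gene lists and text, since the table holds identifiers only; 2 symbols given to more than 1 identifier were left out. Genes were named by rule: the 10 highest and 10 lowest fitted fold changes among DEGs with a symbol, at least 10 CPM in the region where they were higher, the same direction in all 5 camels and more than 3 counts in some library of each region; the 5 most abundant of each region; list members, at least the most abundant of each list and called members against their list; genes passing the interaction test; transport and cholesterol genes of the study; and the 3 list members with the most variable paired difference. Of 473 listed symbols, 318 had an identifier and 308 were tested. Chi-square tests found every pair of libraries of a region different, so none was a duplicate. Both libraries of a camel carry its label, which gives the pairing, although their deviations from the group means correlated weakly across genes (mean 0.0867, range -0.166 to 0.263, rank 18 among all 120 ways to pair the camels, p = 0.15 by exact permutation).

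Counts were simulated from these libraries with 100 genes changed by 1 and 100 by 2 on the log2 scale. The regional test recovered 49% and 88% of them and called 11 unchanged genes. The interaction test recovered 14% and 72% and called 2. Far fewer genes were changed than differed between the regions in the data, equally many up and down, and the spread was that estimated by edgeR. The rates therefore need not carry over to the regional comparison. Alternatives were DESeq2 (version 1.42.0), limma-voom (version 3.58.1), other size factors and filters, no block, all 30 libraries and each camel left out. Some genes that the rule takes are not reported here. No sequences are shown, since none was given for the genes.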

Additional observations from a re-analysis of the deposited data

Results flagged for a closer look

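In each group of 5 libraries of a named gene, a library was picked out when its gap to the nearest of the others took up more of the group's range than Dixon's 95% limit allows, which chance does in about 1 group in 20. It did so in 10 of 300 groups. In the cortex, NLRP6 was high in camel D4 (107 CPM, the others 18.2 to 24.9), SLC13A1 in camel D2 (89.8 CPM, the others 39.7 to 50.3), INSIG1 in camel D5 (19.1 CPM, the others 10.1 to 11.7), COL1A1 in camel D5 (52.3 CPM, the others 20.1 to 22.3) and CD2AP in camel D3 (43.3 CPM, the others 31.6 to 34.1). AQP2 was low in the cortex of camel D5 (160.4 CPM, the others 242 to 268), and FN1 in that of camel D2 (15.7 CPM, the others 28.1 to 32.1). In the medulla, S100A2 was high in camel D1 (247 CPM, the others 66.6 to 95.8), while KLHL3 was low in camel D3 (23.9 CPM, the others 29.8 to 31.2) and LSS in camel D1 (15.1 CPM, the others 22.0 to 25.2).

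The regional difference on the log2 scale differed between dehydrated and control camels, by the interaction test of edgeR after Benjamini-Hochberg adjustment, by -4.37 for WNT7B (p_adj = 0.00322), by -2.99 for PVALB (p_adj = 0.0201), by 3.10 for CHI3L1 (p_adj = 0.0327) and by -1.87 for SLC27A3 (p_adj = 0.0327).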

How the results depend on the processing

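The number of DEGs between the regions was 9877 and stayed between 7589 (p_adj under 0.01) and 10240 (total counts) under all alternatives, and without each camel in turn between 8762 and 9401. Without the replicate block 10069 genes were DEGs and 2093 of them at least 4-fold, against 2124 with it. The 4-fold count ran from 1630 without camel D4 to 2797 with total counts. The interaction gave 4 genes with edgeR, 125 with DESeq2, 1 with all 30 libraries and the block, and 1 to 6 without each camel. On simulated counts DESeq2 called 21 unchanged genes in the interaction, and edgeR 2. Those counts were drawn with the spread that edgeR estimated, so they cannot rank the tools. The median log2 fold change is set by the scaling, RNA integrity moved with region, and symbols cover a part of the genes. An alternative without mitochondrial genes was not run, as the table holds none.

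With total counts, the osmolyte list turned to 3 genes in the cortex direction against 8 in the medulla, 5 prostaglandin, 7 sodium transport and 3 sterol regulation genes were higher in the medulla, and 9 fatty acid oxidation genes were higher in the cortex. The immune list, with 2 genes higher in the cortex and 1 in the medulla, gave 0 and 3 with total counts, 2 and 3 with DESeq2, 1 and 2 with all 30 libraries and the block, and 1 and 1 in the 6-group fit, without the block and at p_adj under 0.01. Without each camel 1 to 2 immune genes were higher in the cortex, with 1 without camel D2 or D4. Sterol regulation gave 2 genes higher in the medulla with DESeq2 and with all 30 libraries and the block, and 1 to 2 without each camel (2 without camel D5). The difference of the median SD between regions was 0.048 and ran from 0.029 without camel D4 to 0.0687 without camel D3.

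Of 150 named genes, 96 kept direction and call under every alternative. With total counts the log2 fold change turned to 0.0068 for SGK1, 0.011 for ITGA8, 0.075 for S100A2, 0.089 for SPINT2, 0.094 for SCNN1A and UQCRC2, 0.12 for SLC13A1, 0.11 for SLC27A3, 0.15 for RPL7A, 0.18 for PPP1R1A, 0.27 for KCNJ16, 0.29 for SLC7A7, 0.35 for ENO1, 0.37 for VWF and 0.49 for IMPA1, by the construction of that scaling. Without each camel VWF ran from -0.315 to 0.0040 and IMPA1 from -0.139 to 0.033, with 0.00022 without camel D4. HBB was at -0.0079 in the 6-group fit of all 30 libraries. The cause of the other changes was not tested.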
